A study of Homo sapiens with 2 samples.

Results

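Interferon-stimulated genes, a set of 39 genes that cells switch on when interferon reaches them, were followed in PLC cells, a human liver cancer line, with and without PRSS35. The 39 genes were taken from a fixed list of names, and a gene was included when its name stood in the tables of both libraries, also as 1 of several names of a joined locus. All 39 were found, among 26257 gene names shared by the libraries. Each condition was sequenced as 1 library, from PLC cells carrying the empty vector (EV, genotype WT) or stably overexpressing PRSS35, a secreted protein of the serine protease family. Both kinds of cell had been infected with lentivirus made from the pCDH vector and selected with puromycin, so the EV cells share the vector and the selection. No further treatment is stated for the sequenced cells. In the search for PRSS35 substrates, the transcript levels served to set apart proteins whose loss from the medium had no counterpart in RNA.

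Type I interferons bind the receptor IFNAR1 and IFNAR2, whose kinases JAK1 and TYK2 phosphorylate STAT2. Together with IRF9 it takes part in a complex that binds the interferon-stimulated response element in the promoters of its target genes. The products of those genes bind or destroy viral RNA, block entry and budding of virus, tag proteins with ISG15, or feed back on the pathway itself. Some are also transcribed at a low level in cells that have met no added interferon.

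The response element is written here as GAAANNGAAA, the letters GAAA repeated after 2 free bases, and was searched on both strands of RefSeq promoters (GRCh38.p14, 250 bases before to 50 after each annotated start). Promoters were matched for 30 of the 39 genes, DDX58 under its newer symbol RIGI, whereas IFIT2, IFITM2, MX2, OAS2, OASL, USP18, IRF7, TRIM22 and GBP2 were not matched. The letters were found in 23 of these 30 genes (76.7%), and in 1195 of all 27305 genes with a promoter in the table (4.38%), or 1255 of 35116 promoters (3.57%). For TTCNNNGAA, the gamma-activated site of genes that answer to interferon gamma, the shares were 9 of 30 (30.0%) and 9.38% of all genes. A match overlaps another where they share letters, as in ISG15, and in IFI27 the gamma-activated site overlaps both response elements. The list holds textbook targets of this element, so the share describes the list and is no finding about PRSS35.

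The windows below are shown because the same letters occur in genes at very different levels in these cells. They were chosen as the genes with the element that differed most between the libraries, and ISG15 and IFI44L were added after their values had been seen, as the most abundant member and as one listed at 0 in both libraries. Each is written 5′ to 3′ in the direction of the gene and ends before the annotated start, with the matches that lie wholly before the start in capitals. Their positions on GRCh38.p14, which differ from the hg19 positions of the expression tables, are chr10:89414478-89414567 for IFIT5, chr11:313955-314039 for IFITM1, chr14:94110583-94110695 for IFI27, chr15:88638902-88639001 for ISG20, chr1:27672231-27672393 for IFI6, chr1:1013339-1013444 for ISG15 and chr1:78620239-78620429 for IFI44L. IFI6 is on the minus strand and the others are on the plus strand.
IFIT5: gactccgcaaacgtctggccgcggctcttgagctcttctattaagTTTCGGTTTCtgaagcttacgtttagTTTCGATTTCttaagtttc
IFITM1: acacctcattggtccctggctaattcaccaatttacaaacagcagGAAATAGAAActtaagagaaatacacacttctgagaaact
IFI27: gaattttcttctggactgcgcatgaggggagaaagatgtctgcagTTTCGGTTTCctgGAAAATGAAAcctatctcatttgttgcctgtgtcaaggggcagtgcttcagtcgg
ISG20: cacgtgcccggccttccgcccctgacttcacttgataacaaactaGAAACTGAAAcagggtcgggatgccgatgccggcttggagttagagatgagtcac
IFI6: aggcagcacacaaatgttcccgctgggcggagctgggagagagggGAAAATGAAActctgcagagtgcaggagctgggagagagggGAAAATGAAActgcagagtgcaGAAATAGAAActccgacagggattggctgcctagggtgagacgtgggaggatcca
ISG15: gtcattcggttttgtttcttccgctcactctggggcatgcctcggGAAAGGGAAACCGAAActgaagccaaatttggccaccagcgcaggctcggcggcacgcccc
IFI44L: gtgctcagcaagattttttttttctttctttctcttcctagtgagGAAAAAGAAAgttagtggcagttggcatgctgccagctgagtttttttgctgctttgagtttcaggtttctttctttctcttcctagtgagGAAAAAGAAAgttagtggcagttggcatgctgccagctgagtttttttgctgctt

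The values are FPKM as the authors deposited them, a fragment count scaled to transcript length and library size, each with a lower and an upper bound from Cufflinks. These bounds hold the error of counting and assigning fragments in that library and leave out the variation between cultures. No condition was sequenced in replicate, and p-values are not given. The width of the bounds implies a number of fragments for each locus, which is quoted below as a guide to precision and is not a read count. PRSS35 itself had an FPKM of 0.643 in EV and 1836 in PRSS35 cells. Of 16 hepatocyte markers, 15 had a mean FPKM of at least 1, among them SERPINA1 with 2528 in EV and 4239 in PRSS35 cells, while ALB was low with 4.05 and 5.21. Of 11 markers of immune cells, 9 were below 1, including PTPRC and CD3E, which are listed at 0 in both libraries. The exceptions were LYZ, with 94.0 and 104 FPKM, and CD68, whose locus is joined with MPDU1. The summed FPKM of the immune markers was 391 in EV and 382 in PRSS35 cells, of which the joined locus of CD68 and MPDU1 held 297 and 278. The part of the immune markers in the results below was not tested. Of 7 stromal and endothelial markers, 6 were below 1. In RNA from whole cultures, fewer cells that make a transcript and less of it per cell cannot be told apart.

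The members were split into a few very abundant transcripts and many that were barely present. A gene was taken as expressed when its FPKM averaged 1 or more across EV and PRSS35 cells, a limit reached by 19 of the 39 genes (48.7%), close to the 42.3% of all gene names. Of these 19 genes, 8 reached 10 FPKM and 4 reached 50 FPKM. ISG15, IFITM3, IFI6 and the locus of IRF9 made up 96.2% of the summed FPKM of all members in EV and 95.0% in PRSS35 cells, and ISG15 alone made up 55.7% and 53.7%. The sums over the 39 members were 2727 and 2491 FPKM. In the plot of levels by role, the same genes are high and the same genes are low in both libraries.

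**Figure D1:**
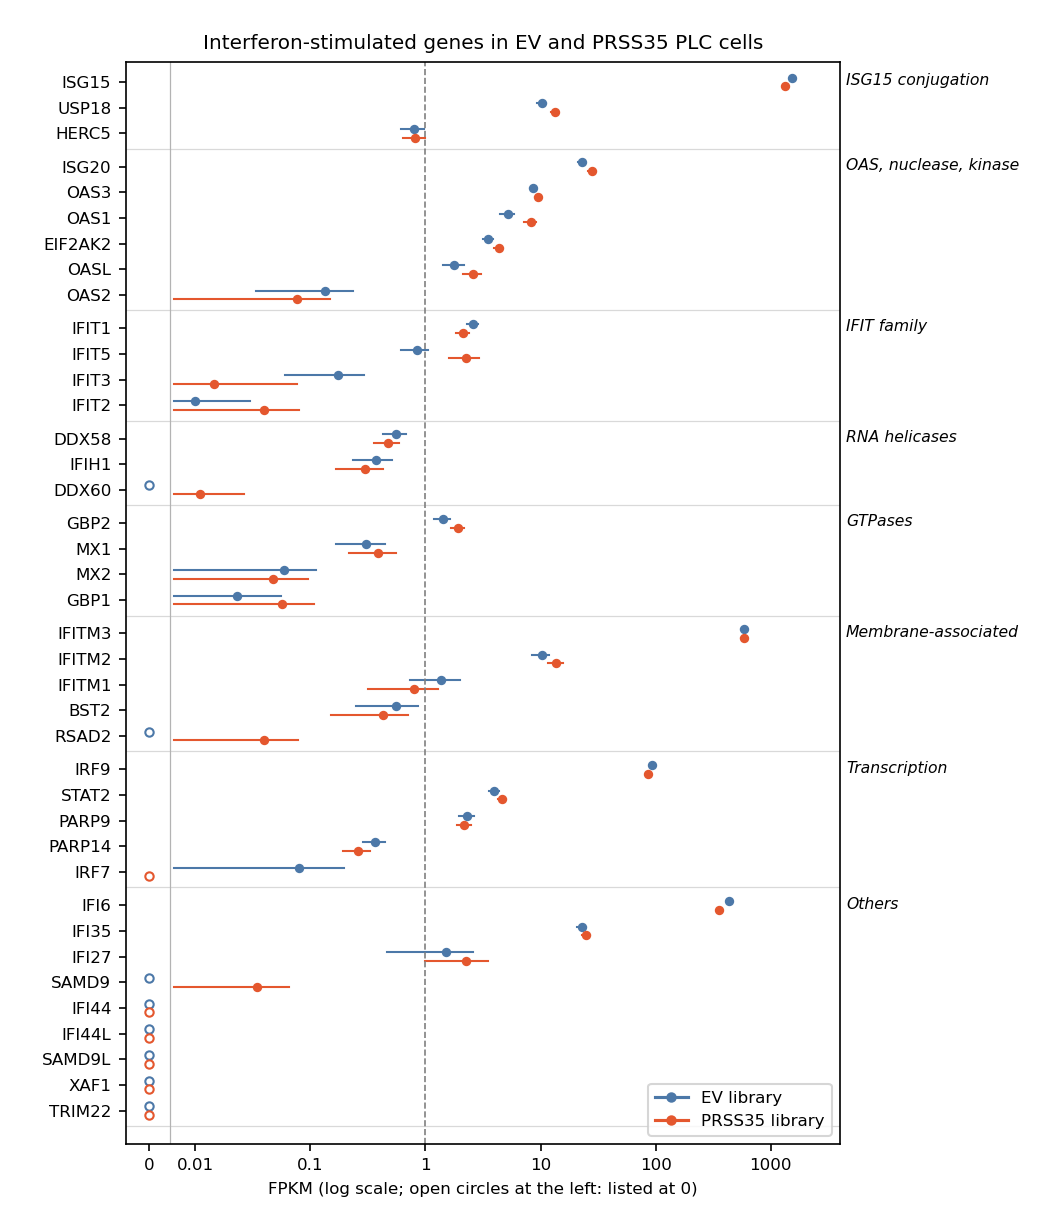
FPKM (x axis, log scale) of each of the 39 genes (y axis, grouped by role) in the EV library (blue) and the PRSS35 library (orange), with bars for the deposited interval, clipped at the left line, and open circles for genes listed at 0. The dashed line marks 1 FPKM. ISG15 sits at the right edge, with 1519 and 1338 FPKM, whereas IFI44, IFI44L, SAMD9L, XAF1 and TRIM22 are listed at 0 in both.

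Transcripts of ISG15, USP18 and HERC5 differed widely in level within the same library. ISG15, a ubiquitin-like protein that is joined to other proteins, lies on chromosome 1 of hg19 from 948847 to 949919. Its level was 1519 FPKM (interval 1496 to 1541) in EV cells and 1338 FPKM (interval 1317 to 1359) in PRSS35 cells. It ranked 108 among all gene names in EV and 121 in PRSS35 cells. USP18, the protease that takes ISG15 off its targets and also restrains signalling from the interferon receptor, had 10.2 and 13.3 FPKM. HERC5, the ligase that attaches ISG15 in human cells, had 0.794 and 0.813. Thus ISG15 stood 149 times above USP18 in EV cells and 101 times above it in PRSS35 cells.

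The 2'-5' oligoadenylate synthetases, which make the messenger that activates RNase L, are encoded side by side on chromosome 12 of hg19, from 113344739 for OAS1 to 113449528 for OAS2. OAS3 had 8.63 FPKM in EV and 9.46 in PRSS35 cells, and OAS1 had 5.18 and 8.18. OAS2, in the same cluster, had 0.135 and 0.0766. The cluster thus held 2 expressed genes and 1 gene near 0 in both libraries. OASL, a relative that lies apart from the cluster, had 1.78 and 2.57. ISG20, an exonuclease that degrades viral RNA, had 22.8 and 28.1. EIF2AK2, which encodes the kinase PKR that stops translation when it binds double-stranded RNA, had 3.51 and 4.31.

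The IFIT genes, whose products bind foreign RNA ends, form a cluster on chromosome 10. IFIT1 had 2.58 FPKM in EV and 2.12 in PRSS35 cells, and IFIT5 had 0.838 and 2.26. IFIT2 was at 0.00988 and 0.0394, with about 1.00 and 4.00 implied fragments. IFIT3 was at 0.175 and 0.0146, about 9.32 and 0.223 implied fragments, with overlapping intervals. IFIT1 thus stood above 1 FPKM in both libraries and IFIT5 in PRSS35 cells, while IFIT2 and IFIT3 stayed near 0. ISG15 stood 589 times above IFIT1 in EV cells and 631 times above it in PRSS35 cells.

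Sensors and GTPases were low in both libraries. The RNA helicases DDX58 (RIG-I) and IFIH1 (MDA5), which detect viral RNA in the cytoplasm, had 0.554 and 0.373 FPKM in EV cells and 0.475 and 0.296 in PRSS35 cells. Of the 50-base stretches of the DDX58 transcript, 89.1% also occur in 1 overlapping GENCODE model, so its value is uncertain if the counting split them. DDX60 is listed at 0 in EV and at 0.0109 in PRSS35 cells. MX1, a dynamin-like GTPase that blocks many viruses, had 0.305 and 0.386, about 19.9 and 20.6 implied fragments, and MX2 had 0.0592 and 0.0473. GBP1, a guanylate-binding protein, had 0.0229 and 0.0572, and its neighbour GBP2 had 1.41 and 1.93. GBP2 was the only gene of these 7 with a mean of at least 1 FPKM.

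The IFITM genes, which encode small membrane proteins that hinder fusion of virus with the cell, lie within a short stretch of chromosome 11 and differed widely in level. IFITM3 had 581 FPKM (interval 554 to 609) in EV and 585 (interval 557 to 613) in PRSS35 cells. IFITM2 had 10.2 and 13.6, and IFITM1 had 1.37 and 0.798. In EV cells IFITM3 was 424 times above IFITM1. Of the 50-base stretches of the GENCODE transcript of IFITM1, 38.9% also occur in other genes. The largest share, 35.5%, is with a GENCODE model that has no symbol, and 12.3% occur in IFITM3. The low value of IFITM1 is thus the less certain of the pair. BST2 (tetherin), which holds budding virus at the cell surface, had 0.557 and 0.429 FPKM with about 13.0 and 9.59 implied fragments. RSAD2 (viperin) is listed at 0 in EV and at 0.0392 in PRSS35 cells.

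The components of the transcription complex were present without IRF7. STAT2 had 3.95 FPKM in EV and 4.64 in PRSS35 cells. IRF9 is read only as a locus joined with its neighbour RNF31 in both libraries, with 93.9 and 86.3 FPKM for the pair, and the share of IRF9 in it is not given by the tables. IRF7, which amplifies the interferon response, had 0.0791 in EV cells, about 1.87 implied fragments, and is listed at 0 in PRSS35 cells. PARP9, an ADP-ribosyltransferase, had 2.29 and 2.18, and PARP14 had 0.364 and 0.260.

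Among the other members, IFI6, a mitochondrial protein that counters cell death, had 431 FPKM (interval 414 to 447) in EV and 358 (interval 342 to 373) in PRSS35 cells. IFI35 had 22.7 and 24.9. IFI27, often among the most inducible genes of the set, had 1.52 and 2.26, from about 8.26 and 12.7 implied fragments. SAMD9 is listed at 0 in EV and at 0.0343 in PRSS35 cells, and its neighbour SAMD9L at 0 in both. IFI44 and IFI44L, which neighbour each other on chromosome 1, XAF1 and TRIM22 are also listed at 0 in both libraries. In all, 20 of the 39 genes stayed below a mean of 1 FPKM. They comprise 5 genes listed at 0 in both libraries, 3 at 0 in EV, 1 at 0 in PRSS35 and 11 above 0 in both, and the intervals of all 11 overlapped between the libraries.

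The element of the promoter windows above did not separate high from low members. It was found in 11 of the 15 expressed members with a promoter in the table (73.3%) and in 12 of the 15 below 1 FPKM (80.0%). ISG15 and IFI44L both carry it upstream of the start, although ISG15 was the most abundant member and IFI44L is listed at 0. No match to GAAANNGAAA was found in the windows of STAT2, IRF9, OAS1 and IFI35 among the expressed members, and other spacings were not searched. The windows of OAS1, IRF9 and IFI35 hold the letters TTCNNNGAA, which were found in 9.38% of all genes. Promoters of the expressed members held a median of 8.0 CpG dinucleotides per promoter, against 27.0 for all expressed genes in the table and 9.0 for genes below 1 FPKM. The members below 1 FPKM had a median of 7.0. The shares count a gene when any of its promoters holds the letters, PARP9 and RSAD2 only in their second, and the CpG counts use the first promoter of each gene. Binding was not measured.

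The comparison of PRSS35 with EV cells asked whether any member differed between the libraries. On the scale log2((FPKM in PRSS35 + 1) / (FPKM in EV + 1)), which understates the change of low genes, 0 of the 19 expressed members were higher by 2-fold and 0 were lower, whereas 2.73% of all 11118 expressed genes were higher and 2.48% lower. The changes of the 19 genes ran from -0.40 for IFITM1 to 0.83 for IFIT5, with a median of 0.19, when the median of all expressed genes was 0.06. Both ends of this range belong to genes below 1 FPKM in 1 library, IFITM1 in PRSS35 and IFIT5 in EV, which count as expressed through the other library. A higher value in PRSS35 cells was found for 13 of the 19 genes and a lower value for 6, beside 6688 and 4429 of all 11118 expressed genes. For 16 of the 19 genes the interval of the plain FPKM ratio lay wholly between 0.5 and 2, the exceptions being IFIT5, IFI27 and IFITM1. Differences of 2-fold were thus outside the within-library error for most expressed members.

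**Figure D2:**
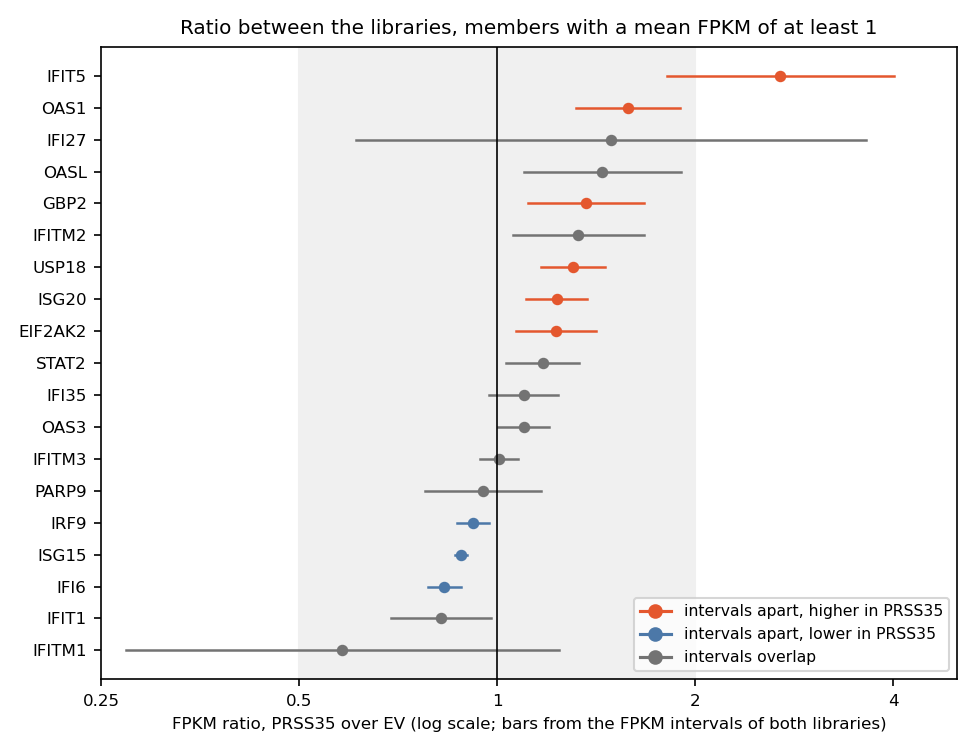
Ratio of FPKM in PRSS35 over EV cells (x axis, log scale) for the 19 expressed members, with bars of 2 SD from the intervals of both libraries and shading from 0.5 to 2. Orange marks the 6 genes whose intervals lie apart with the higher value in PRSS35 cells, blue the 3 with the lower value, and grey the 10 whose intervals overlap.

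The FPKM intervals lay apart for 9 of the 19 genes. The value was higher in PRSS35 cells for 6 of them, ISG20, IFIT5, OAS1, USP18, GBP2 and EIF2AK2, against 25.2% of all expressed genes, and lower for 3, ISG15, IFI6 and IRF9, against 15.5%. Intervals narrow as the level rises. Among genes from 1 to 10 FPKM they lay apart in 28.1% of all genes and in 4 of 11 members, and from 10 FPKM in 52.6% of all genes and in 5 of 8 members. The numbers of members are thus small beside shares of this size, and intervals that lie apart are common between this pair of libraries.

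ISG15, IFI6 and the IRF9 locus, which are among the most abundant members, were slightly lower in PRSS35 cells. ISG15 was 0.881 times its EV value (interval 0.862 to 0.900), with about 18097 and 15846 implied fragments, and IFI6 was 0.831 times (interval 0.784 to 0.881). Of the 50-base stretches of the IFI6 transcript, 19.3% also occur in LINC02574. The IRF9 locus was 0.919 times (interval 0.869 to 0.972), and the gap between its intervals was narrow, from 89.8 to 90.2 FPKM. IFITM3, between ISG15 and IFI6 in level, did not share this direction, with a ratio of 1.01 (interval 0.941 to 1.08). These lower values depend on how the libraries are scaled, for once each library was set to the same total over its loci the log2 changes became 0.53 for ISG15, 0.44 for IFI6 and 0.58 for IRF9, when the median of all expressed genes was 0.68. In the other scalings tried the log2 change of ISG15 stayed between -0.25 and -0.14 and that of IFI6 between -0.33 and -0.22. That of IRF9 stayed between -0.18 and -0.08, and its intervals overlapped when FPKM was scaled to the sum over named loci.

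Of the genes with higher values and intervals apart, OAS1, USP18 and GBP2 kept their annotated structure in both libraries. OAS1 was 1.58 times its EV value (interval 1.32 to 1.90), with about 199.8 and 302.8 implied fragments. USP18 was 1.30 times (interval 1.16 to 1.46), with about 547 and 728. Of the 50-base stretches of the USP18 transcript, 26.4% also occur in USP41, so part of its reads can be split between these genes. GBP2 was 1.37 times (interval 1.11 to 1.67), ISG20 1.23 times (interval 1.11 to 1.37) and EIF2AK2 1.23 times (interval 1.07 to 1.41). On chromosome 2 the lower coordinate of the assembled EIF2AK2 locus is 2406 bases smaller in PRSS35 cells, and its upper coordinate also differs. For GBP2 and EIF2AK2 the intervals overlapped once the changes were centred on the median of all expressed genes, and for EIF2AK2 also with scaling by the upper quartile.

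IFIT5 had the largest ratio of the 19 expressed members, but its locus was not the same in both libraries. The ratio was 2.69 (interval 1.81 to 4.01), with intervals from 0.612 to 1.06 in EV and from 1.59 to 2.92 in PRSS35 cells. Cufflinks assembled the locus from reads in both libraries, and on chromosome 10 of hg19 it starts at 91174325 in EV and at 91173885 in PRSS35 cells, 440 bases further upstream, with the same end at 91180759. The bounds imply about 55.3 fragments in EV and 46.4 in PRSS35 cells, so the implied fragments were fewer where the FPKM was higher. The part of the assembled structure in this ratio was not tested. OASL, IFITM2, STAT2, OAS3 and IFIT1 had ratios whose interval left out 1, while their FPKM intervals overlapped. Their ratios were 1.44, 1.33, 1.17, 1.10 and 0.822.

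Of the 19 expressed genes, 8 kept their annotated structure in both libraries, 9 were assembled in both and 2, IFI27 and STAT2, were assembled in 1 library. Among the 8 annotated genes the median log2 change was 0.32, when that of all such genes was 0.08. The intervals lay apart for 4 of the 8, OAS1, USP18 and GBP2 with the higher value in PRSS35 cells and ISG15 with the lower, against 23.5% and 6.84% of all such genes.

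**Figure D3:**
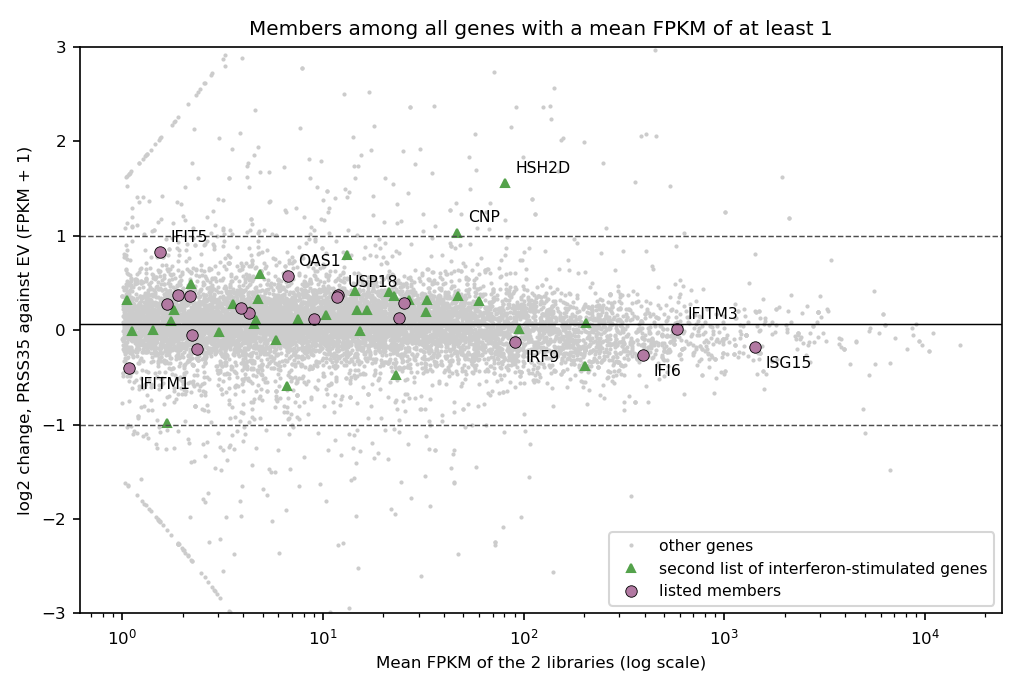
Log2 change in PRSS35 against EV cells (y axis, FPKM + 1) by mean FPKM of the 2 libraries (x axis, log scale) for all expressed genes, of which 201 have changes beyond 3 and are outside the range. The 19 listed members (purple) lie between the dashed lines at 2-fold, and of the second list of interferon-stimulated genes (green) HSH2D and CNP lie above them.

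Upstream of these genes, no interferon transcript was found in either library. All 21 interferon genes examined, IFNB1, 13 IFNA genes, IFNW1, IFNE, IFNK, IFNG and the IFNL genes among them, are listed at 0 in both. Of 10 genes for receptors and the signalling next to them, 9 were expressed. IFNAR1 had 2.46 FPKM in EV and 3.32 in PRSS35 cells, a ratio of 1.35 (interval 1.18 to 1.54). Its locus was assembled in both libraries with different ends on chromosome 21 of hg19. It ran from 34697214 to 34732128 in EV and from 34696475 to 34733001 in PRSS35 cells, and the part of this in the ratio was not tested. JAK1 had 15.5 and 15.2, TYK2 23.8 and 23.3, and IFNGR2 23.4 and 28.0. The intervals of IFNAR1 and IFNGR2 lay apart with the higher value in PRSS35 cells, and those of JAK1 and TYK2 overlapped. In this list the intervals lay apart for 5 of the 9 expressed genes, 5 higher and 0 lower, against 25.2% and 15.5% of all expressed genes. The 5 include IFNAR2 and IL10RB, described next.

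IFNAR2 and IL10RB were the only 2 genes of this list that were higher by 2-fold, beside 2.73% of all expressed genes. They went from 12.9 and 14.7 FPKM in EV to 34.1 for both in PRSS35 cells. They are 2 separate loci in EV and a single joined locus in PRSS35 cells. Summed over both genes, the EV value was 27.6 and the ratio 1.24. With genes left out whose locus carried different names in the libraries, 0 of the remaining 7 genes were higher or lower by 2-fold.

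Of 18 genes that lead from the sensing of nucleic acid to interferon, 10 were expressed. Of these, 0 were higher or lower by 2-fold, beside 2.73% and 2.48% of all expressed genes. The endosomal receptors TLR3, TLR7 and TLR8 and the DNA sensor cGAS (MB21D1) are listed at 0 in both libraries, and its adaptor STING (TMEM173) had 0.06 FPKM in both. IRF3, the factor that switches on IFNB1, was the most abundant with 132 FPKM (interval 127 to 137) in EV and 100.1 (interval 94.9 to 105) in PRSS35 cells. TICAM1, the adaptor of TLR3, had 15.6 and 11.2, and MAVS, the adaptor of RIG-I and MDA5, 22.3 and 11.2. The EV value of MAVS is that of a locus joined with PANK2, and in PRSS35 cells MAVS and PANK2 together had 23.6 FPKM, a ratio of 1.06. The intervals of IRF3, TICAM1 and MAVS lay apart with the lower value in PRSS35 cells, and those of the adaptor MYD88, named after its values were seen, with the higher, from 1.66 to 2.73 FPKM. Among all expressed genes 15.5% lay apart with the lower and 25.2% with the higher value. From 10 FPKM, where IRF3, TICAM1 and MAVS lie, the lower share was 22.3%.

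All 9 inhibitors of the pathway in the list were expressed, and 0 were higher or lower by 2-fold, beside 2.73% and 2.48% of all expressed genes. The phosphatase PTPN1 had 26.8 FPKM in EV and 35.5 in PRSS35 cells, and PTPN6 21.4 and 21.5. IRF2BP1, a co-repressor of IRF2, had 114.9 and 94.2. The intervals lay apart for PTPN1, with the higher value in PRSS35 cells, and for IRF2BP1, with the lower, against 25.2% and 15.5% of all expressed genes.

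A second list of 58 interferon-stimulated genes outside the 39 was described in the same way. Of its 36 expressed genes, 2 were higher by 2-fold and 0 lower, beside 2.73% and 2.48% of all expressed genes. HERC6, named after its values were seen, lay just short of the lower limit, with a log2 change of -0.98. It had 2.56 FPKM in EV and 0.799 in PRSS35 cells, about 40.1 and 12.6 implied fragments. Its plain ratio was 0.312 (interval 0.164 to 0.596), which is beyond 2-fold. The intervals lay apart for 21 of the 36, 17 with the higher and 4 with the lower value in PRSS35 cells, against 25.2% and 15.5% of all expressed genes. By level, the shares of all genes were 19.8% and 8.29% from 1 to 10 FPKM, and 30.3% and 22.3% from 10 FPKM. The 17 include HSH2D, whose locus differs between the libraries, and MYD88, which is also in the list from sensing to interferon. The median log2 change of the 36 was 0.21. IFI30, a lysosomal thiol reductase, had 198 FPKM in EV and 209 in PRSS35 cells, LY6E 229 and 175.0, and SHISA5 94.0 and 95.0. CNP, a phosphodiesterase, had 30.3 (interval 28.8 to 31.9) and 63.1 (interval 60.2 to 66.1), at a locus assembled in both libraries, with about 1559 and 1832 implied fragments. HSH2D is joined with RAB8A in EV and with RAB8A and TPM4 in PRSS35 cells, with 40.5 and 121 FPKM. With the EV value of TPM4 added, the ratio of this locus was 1.08.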

How the data were processed

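The data are 2 RNA sequencing libraries of PLC cells, 1 for EV and 1 for PRSS35. The authors aligned reads to hg19 with TopHat2 2.1.0, quantified them with Cufflinks 2.2.1 (Cuffdiff 2.2.1 per the labels) and deposited 1 table of FPKM with interval bounds for each library. The annotation release and options are not given in the sources used here. Read counts were not used here. The members and gene lists were chosen with earlier results of these data known, and all 39 members are reported. Other listed genes were named for their level, a 2-fold change or their place in the pathway.

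FPKM of rows that share a name was summed, comma-joined names counting for each gene. Start positions were raised by 1 to count from 1. Expressed genes (average of 1 FPKM or more) were compared on a log2 scale after 1 FPKM was added to each value, and counted at 2-fold or where the deposited intervals lay apart. Ratio intervals combine both libraries at 2 SD. Implied fragments are (2 × FPKM / distance to the upper bound) squared. The calls were tested on simulated data. Alternatives were pseudocounts of 0.1 and 5 FPKM, 4 scalings, the highest row per name, exact names, no filter or 5 FPKM, and 1.5-fold. Restrictions to loci with the same names, above 0 or annotated in both libraries were chosen after seeing the data. Shared stretches of 50 bases were counted over GENCODE v44lift37 transcripts (longest protein-coding transcript per gene). Promoters are RefSeq, GRCh38.p14. Protein sequences were not used here. Some listed genes are not reported here. Python 3.11.15, numpy 2.4.6, pandas 2.3.3 and matplotlib 3.10.9 were used.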

Additional observations from a re-analysis of the deposited data

How the results depend on the processing

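No paired analysis was possible because there is a single library of EV and a single library of PRSS35 cells. The median log2 change of the expressed members was 0.19 and moved by more than 0.1 under 3 settings: to 0.79 with each library set to the same total over its loci, to 0.0087 without a filter on low values, which adds the 20 members below 1 FPKM, and to 0.32 among genes annotated in both libraries. For the second list the median of 0.21 became 0.80 and 0.063 under the first 2 of these. The equal totals shift all expressed genes, whose median goes from 0.06 to 0.68. They made 4 members higher by 2-fold (IFIT5, IFITM2, OAS1 and USP18), beside 1430 of all 11602 genes then expressed. Of the 20 members then expressed, 18 had intervals apart, 18 higher and 0 lower. Among all genes then expressed, 85.9% lay apart with the higher and 2.40% with the lower value. A pseudocount of 0.1 FPKM or a 1.5-fold threshold each made 1 member higher, IFIT5, and 0 members were lower by 2-fold in each setting run. The count of members with intervals apart was 9, with 6 higher and 3 lower, beside 25.2% and 15.5% of all expressed genes. It became 4 and 3 with centring, 5 and 3 with the upper quartile, and 8 and 2 with the sum over named loci, which adds OASL and STAT2 and drops IRF9. The matching shares of all expressed genes were 18.9% and 20.3%, 22.6% and 17.1%, and 30.2% and 13.0%. With a mean FPKM of at least 5 there were 3 higher, and among annotated genes 4 in all, 3 higher and 1 lower, as fewer genes enter. Of all genes, 29.2% lay apart higher from 5 FPKM, and 23.5% higher and 6.84% lower among annotated genes.

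Of all expressed genes, 303 were higher and 276 lower by 2-fold. The counts became 192 and 162 with a pseudocount of 5 FPKM, 581 and 475 at 1.5-fold, 201 and 163 among genes above 0 in both libraries, and 17 and 15 among annotated genes. The higher genes became 1430, beside 188 lower, with equal totals, 187 with exact names and 200 with the same names in both libraries, and the lower genes 169 with a mean of at least 5 FPKM. Of 482 recomputed changes of single members, 436 moved by no more than 2 SD of their own log2 ratio, taken from the upper bounds, and 46 by more, 22 of these with equal totals. Low values limit the members below 1 FPKM, where some rest on fewer than 10 implied fragments.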
